A study of Mus musculus with 24 samples.

Results

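The comparison is the difference between genotypes in the response of mouse calf muscle to diabetes: the log2 change with diabetes in Notch2-mKO muscle minus the log2 change with diabetes in WT muscle. It was taken from 16 of the series' 24 RNA-seq libraries, all those labelled control or diabetes, with 4 libraries in each of 4 groups, and 12864 of 36172 gene models passed the filter on low counts and were tested. All mice were C57BL/6 and all carried floxed Notch2 alleles. Notch2-mKO mice (Mlc1fCre/+;Notch2f/f) carried Cre recombinase as well, expressed from the Mlc1f (myosin light chain) locus, and WT mice (Notch2f/f) carried the floxed alleles without Cre, so no group has unmodified Notch2 alleles and no group has Cre alone. The 4 groups are Notch2-mKO diabetes, Notch2-mKO control, WT diabetes and WT control. Diabetes was produced with streptozotocin, a toxin of the insulin-producing beta cells, given once into the peritoneum (150 mg/kg), and muscle was taken 14 days later. The tissue was the whole gastrocnemius, so fibres, vessels, connective tissue, nerve and resident immune cells were sequenced together, while the Cre driver acts in muscle fibres. Neither age nor sex is given in the sources used here, and the labels do not say that the 4 libraries of a group came from separate animals, so p-values measure the spread between these libraries, part of which may be technical.

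Notch2 is 1 of the mammalian Notch receptors. A ligand of the Jagged or Delta-like family on a neighbouring cell opens it to cleavage by Adam10 and then by gamma-secretase, and the freed intracellular domain joins Rbpj on DNA with a Mastermind-like protein to switch on genes of the Hes and Hey families. Loss of insulin removes Akt signalling in muscle, which lets FOXO transcription factors enter the nucleus and raise the ubiquitin ligases atrogin-1 (Fbxo32) and MuRF1 (Trim63). Diabetic muscle also burns more fatty acid and less glucose and makes less collagen. By its title, the series asks what loss of Notch2 does to muscle wasting in diabetes and unloading.

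Each library held between 33112459 and 56369917 estimated counts, and between 14226 and 14704 gene models were above 0. Levels are given below in CPM (counts scaled to library size), after scaling of the libraries to each other. Markers of muscle fibres summed to between 238763 and 275167 CPM in Notch2-mKO diabetes, 262942 and 299121 in Notch2-mKO control, 219950 and 272173 in WT diabetes and 276785 and 333017 in WT control, and all 10 were measured. The first principal component, with 37.2% of the variance, held the Notch2-mKO diabetes libraries between 18.5 and 24.2, Notch2-mKO controls between -26.9 and -5.40, WT diabetes between 16.1 and 58.9 and WT controls between -50.7 and -21.1. WT diabetes replicate 3 stood apart. Its chi-square per gene against the other 3 WT diabetes libraries was 113 to 241, and no other pair of replicates exceeded 67.7. Of the 105 differences in response that were followed by gene name, leaving it out made 15 smaller by over 1.5 times and turned the sign of 1.

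Notch2 itself (chromosome 3, 98013538 to 98150367; coordinates here and below are those of GRCm38, the assembly known as mm10) was at 1.67, 2.13, 1.14 and 2.11 CPM in Notch2-mKO diabetes libraries and 2.09, 1.22, 1.54 and 2.51 in Notch2-mKO controls. In WT muscle it was at 1.72, 2.14, 3.13 and 1.97 CPM with diabetes and 1.81, 1.73, 1.84 and 1.88 in controls. All 4 groups overlapped, and the difference in response was -0.37 (log2, standard error 0.36, 95% interval -1.12 to 0.38, unadjusted edgeR p 0.317). Between genotypes the log2 difference was -0.35 in diabetes and 0.02 in controls, so the level of Notch2 RNA in whole muscle did not separate the labels. The tables count reads over the whole gene, and neither the deleted exons nor Notch2 RNA of cells other than fibres can be told apart from the rest.

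No gene passed the test for a difference between genotypes in the response to diabetes. The leading genes were Dcakd, with a higher value in Notch2-mKO, and Fam133b, Ckap5, Il6ra and Mtm1, with lower ones, and Fbxo32, the ligase atrogin-1, rose with diabetes by 1.26 in Notch2-mKO and 2.49 in WT (log2). In edgeR's quasi-likelihood test, with Benjamini-Hochberg adjustment over all 12864 genes, 0 genes (0%) were called at an adjusted p below 0.05, and the smallest adjusted p was 0.501. At an unadjusted p below 0.05 there were 1191 genes (9.26% of those tested), of which 431 (3.35%) had a higher change and 760 (5.91%) a lower change in Notch2-mKO than in WT. On the authors' own log2 values, which are scaled another way, 162 of 1236 such genes were higher, or 13.1% against 36.2% in the edgeR fit, and 0 were called by limma. Of 103 named genes tested on those values, the difference was over 1.5 times smaller than with edgeR for 17, over 1.5 times larger for 3 and of the other sign for 1. The authors' values have a floor for low levels, and its part in these changes was not tested. DESeq2 on the same counts called 8 genes, 2 higher and 6 lower, with adjusted p of 0.0426 or 0.0475. They were Dcakd, Il6ra, Fam133b, Ckap5 and Mtm1, described below, and 3 genes with a mean below 2 CPM, Adamtsl2, Zfp287 and 2810474O19Rik, which are named after their values were seen. Leaving out WT diabetes replicate 1 gave 1 edgeR call, A230073K19Rik, also named after its values were seen, which was at 2.62 CPM in that library and at 0.0419 to 0.0879 CPM in the other 3 WT diabetes libraries. Leaving out WT control replicate 4 raised the count at unadjusted p to 1921, and leaving out Notch2-mKO control replicate 1 lowered it to 703.

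Every gene called in both genotypes moved the same way with diabetes. In Notch2-mKO muscle 820 genes (6.37%) were called, 444 higher (3.45%) and 376 lower (2.92%) in diabetes, and in WT muscle 4573 (35.5%) were called, 2418 higher (18.8%) and 2155 lower (16.8%). Both contrasts called 756 genes, which is 92.2% of the Notch2-mKO calls and 16.5% of the WT calls, and all 756 had the same sign. Upper quartile scaling turned the Notch2-mKO split to 347 higher and 477 lower. The Notch2-mKO count was 418, 377 or 194 without control replicate 2, 3 or 4 of that genotype, 423, 262, 330 or 205 without its diabetes replicate 1, 2, 3 or 4, and 1470 without WT diabetes replicate 3. Fewer calls in Notch2-mKO do not by themselves show a smaller effect. The difference itself was tested gene by gene and no gene passed. That test cannot decide on a small shift shared by many genes, which may lie within the spread of each.

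Across the 12864 genes the log2 responses had an SD of 0.468 in Notch2-mKO and 0.677 in WT, a ratio of 0.692. The ratio lay between 0.636 and 0.761 with any 1 library left out, and was 0.749 once the trend with base composition described below was removed. Its standard error, taken from the fits with 1 library left out (jackknife), was 0.129, so that range understates its uncertainty. Across genes, which are not independent replicates, the Notch2-mKO responses followed the WT responses with a slope of 0.502 and Pearson r of 0.726, and the libraries behind them are separate. The median difference in response over all genes was -0.003 (log2), beside a median standard error of 0.247 for a single gene. Between genotypes, 0 genes were called by edgeR in diabetes and 0 in controls, with 769 (5.98%) and 748 (5.81%) genes at an unadjusted p below 0.05. DESeq2 called 3 genes in diabetes, all higher in Notch2-mKO (Adamtsl2, Tmem45b and Gm20594), and 4 in controls (Lancl1, Ear2 and Bgn lower, Aldh1a1 higher in Notch2-mKO), all but Bgn named after their values were seen. Without WT diabetes replicate 4, edgeR called Wdfy1 in both genotype comparisons, a gene named after its values were seen. It was at 9.33, 8.49, 7.73 and 8.60 CPM in Notch2-mKO diabetes, 8.43, 9.32, 7.99 and 8.58 in Notch2-mKO control, 1.17, 1.80, 2.0 and 8.65 in WT diabetes and 1.24, 1.78, 2.54 and 2.0 in WT control. Both Wdfy1 and Lancl1 are on chromosome 1, and whether they are linked to the locus that carries Cre was not tested. For Wdfy1, WT diabetes replicate 4 lay in the range of the Notch2-mKO libraries and the other 7 WT libraries lay far below them. For Lancl1 that library went with its label: it was at 31.85 CPM, beside 36.3, 29.9 and 26.3 in the other WT diabetes libraries and 22.0 to 24.7 in Notch2-mKO diabetes. Whether WT diabetes replicate 4 matches its labelled genotype and strain background was not tested, and every WT diabetes mean and every difference in response includes it. Without it edgeR called 0 genes for the difference in response, and 1232 lay at an unadjusted p below 0.05, against 1191 with it.

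**Figure D1:**
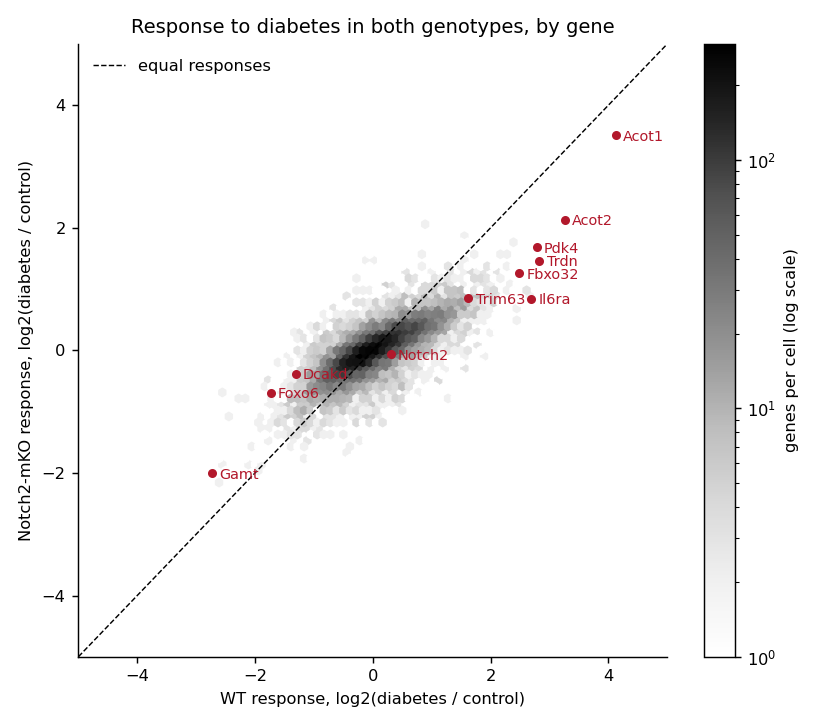
Log2 change with diabetes in Notch2-mKO muscle (vertical axis) against that in WT muscle (horizontal axis) for the tested genes, as counts of genes per cell on a log grey scale, with the line of equal responses and 11 named genes in red. The cloud is wider along the WT axis (SD 0.677) than along the Notch2-mKO axis (SD 0.468), and 5 genes beyond the axis limit of 5 are not drawn.

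The difference in response equals the genotype difference in diabetes minus that in controls. For the 760 genes with a lower value, the median difference was -0.67, made of a median genotype difference of -0.30 in diabetes and 0.36 in controls. Their median response was 0.30 in Notch2-mKO and 0.98 in WT. For the 431 genes with a higher value, the median difference was 0.49, with genotype differences of 0.27 in diabetes and -0.22 in controls, and median responses of -0.12 in Notch2-mKO and -0.64 in WT. These genes were selected by the same contrast, so the medians describe them and test nothing. The WT response had the opposite sign to the difference in 753 of the 760 and in 426 of the 431. It enters the difference with a minus sign, so selection by this contrast favours opposite signs and these counts test nothing either.

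The 12 genes with the smallest p on the lower side, among genes with at least 2 CPM, rose with diabetes in WT muscle. Il6ra, which encodes the ligand-binding subunit of the interleukin-6 receptor (chromosome 3, 89869324 to 89913196), had 3.59, 4.39, 3.21 and 4.80 CPM in Notch2-mKO diabetes libraries and 2.04, 2.98, 2.27 and 1.57 in Notch2-mKO controls. In WT it had 3.12, 4.97, 10.4 and 7.93 CPM with diabetes and 0.830, 1.14, 1.06 and 1.06 in controls. Diabetes and control libraries did not overlap in either genotype, the Notch2-mKO controls all lay above the WT controls, and the diabetes groups overlapped between genotypes. The log2 response was 0.85 in Notch2-mKO (edgeR adjusted p 0.0811) and 2.69 in WT (edgeR adjusted p 2.18e-05), and the difference was -1.84 (95% interval -2.71 to -0.97, unadjusted p 0.000305). With the base composition trend removed it was -1.82, and without WT diabetes replicate 3, which holds the highest value, it was -1.53. On the authors' log2 values it was -0.999 (unadjusted p 0.0363 with limma). Those values have a floor for low levels, and its part in the smaller value was not tested.

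Promoters were searched on both strands for the FOXO motif GTAAACA and the Rbpj motif TGGGAA, neither of which contains the other, in windows of 300 bases (250 before the start and 50 after). Of 32851 windows in the RefSeq table of GRCm38.p6, 3.65% hold the FOXO motif and 25.6% the Rbpj motif. Of the 105 genes named by rule here, 82 had a window, 5 with the FOXO motif and 31 with the Rbpj motif in at least 1 window. Some of these genes have 2 or 3 windows, so counts of genes cannot be set against the shares of windows. The window of Il6ra is shown because this gene had the largest difference of the leading genes. Like 25.6% of all windows, that window holds the Rbpj motif, and a link between the motif and the difference was not tested. It is chr3:89913147-89913446 on the minus strand, printed 5′ to 3′ along the gene with the Rbpj motif in capitals.
Il6ra: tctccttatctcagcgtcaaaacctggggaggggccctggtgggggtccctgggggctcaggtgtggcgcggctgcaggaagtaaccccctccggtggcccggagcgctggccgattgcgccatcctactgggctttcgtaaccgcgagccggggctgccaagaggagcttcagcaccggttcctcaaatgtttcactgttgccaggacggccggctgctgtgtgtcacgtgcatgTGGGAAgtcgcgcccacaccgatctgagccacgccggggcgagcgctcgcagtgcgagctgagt
A match is a string of letters, and binding was not measured.

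Mtm1, the phosphoinositide phosphatase myotubularin that is mutated in X-linked centronuclear myopathy, was at 8.07, 7.63, 5.10 and 7.59 CPM in Notch2-mKO diabetes and 7.47, 4.72, 4.46 and 3.86 in Notch2-mKO controls. It was at 8.01, 9.75, 9.62 and 9.62 CPM in WT diabetes and 2.37, 3.20, 2.35 and 3.52 in WT controls. Its Notch2-mKO groups overlapped, its WT groups lay far apart, and every Notch2-mKO control exceeded every WT control. The difference was -1.23 (-1.82 to -0.63, unadjusted p 0.000360) and was -0.68 with the base composition trend removed. Dmd encodes dystrophin, which ties the fibre's actin to the matrix. It had 44.6, 31.1, 36.6 and 41.2 CPM in Notch2-mKO diabetes against 28.5, 18.4, 22.6 and 18.9 in Notch2-mKO controls, and 39.0, 62.4, 70.7 and 44.8 CPM in WT diabetes against 10.4, 13.2, 10.4 and 20.7 in WT controls. Diabetes lay above control without overlap in both genotypes, by 0.79 in Notch2-mKO and 1.99 in WT on the log2 scale, and the difference was -1.20 (-1.84 to -0.56, unadjusted p 0.000964; -0.86 with the trend removed).

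Fam133b was at 5.39, 4.58, 4.61 and 5.78 CPM in Notch2-mKO diabetes and 5.15, 3.88, 4.63 and 4.57 in Notch2-mKO controls, against 5.14, 7.59, 7.32 and 7.00 in WT diabetes and 2.49, 2.69, 2.01 and 3.85 in WT controls. Ckap5, a microtubule polymerase, was at 33.4, 28.1, 31.4 and 33.8 CPM in Notch2-mKO diabetes and 35.4, 32.4, 34.2 and 27.0 in Notch2-mKO controls, against 40.1, 38.6, 40.0 and 35.1 in WT diabetes and 23.8, 24.6, 24.1 and 28.3 in WT controls. For both genes the Notch2-mKO groups overlapped and the WT groups did not. The differences were -1.14 (unadjusted p 0.000286) and -0.64 (unadjusted p 0.000294), and -0.82 and -0.31 with the trend removed. Pcf11, a factor of mRNA cleavage and transcription termination, had 5.37, 4.11, 3.74 and 2.55 CPM in Notch2-mKO diabetes and 4.0, 2.77, 2.73 and 3.74 in Notch2-mKO controls, and 6.49, 6.33, 9.55 and 6.81 in WT diabetes and 2.46, 2.87, 2.12 and 2.82 in WT controls. Every Notch2-mKO diabetes library was below every WT diabetes library, and the difference was -1.25 (unadjusted p 0.000510).

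The other 6 genes on the lower side act in varied processes: Rnmt methylates the mRNA cap, Esco1 acetylates cohesin, Ranbp2 is a nuclear pore protein, March7 is a ubiquitin ligase, Samd8 makes a sphingolipid and Nufip2 binds RNA. Their differences ran from -1.18 for Ranbp2 to -0.68 for Rnmt, and all 12 kept a negative sign under each of the other fits and with each library left out. The 12 were chosen by p from these same libraries, so the kept sign tests nothing. For March7 the difference was -0.91, and -0.43 with the base composition trend removed, and for Ranbp2 and Esco1 it was -0.74 and -0.58 with the trend removed. In Notch2-mKO the log2 responses ran from -0.03 for Ckap5 to 0.85 for Il6ra, while in WT each of the 12 was called, with responses between 0.61 for Ckap5 and 2.69 for Il6ra.

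**Figure D2:**
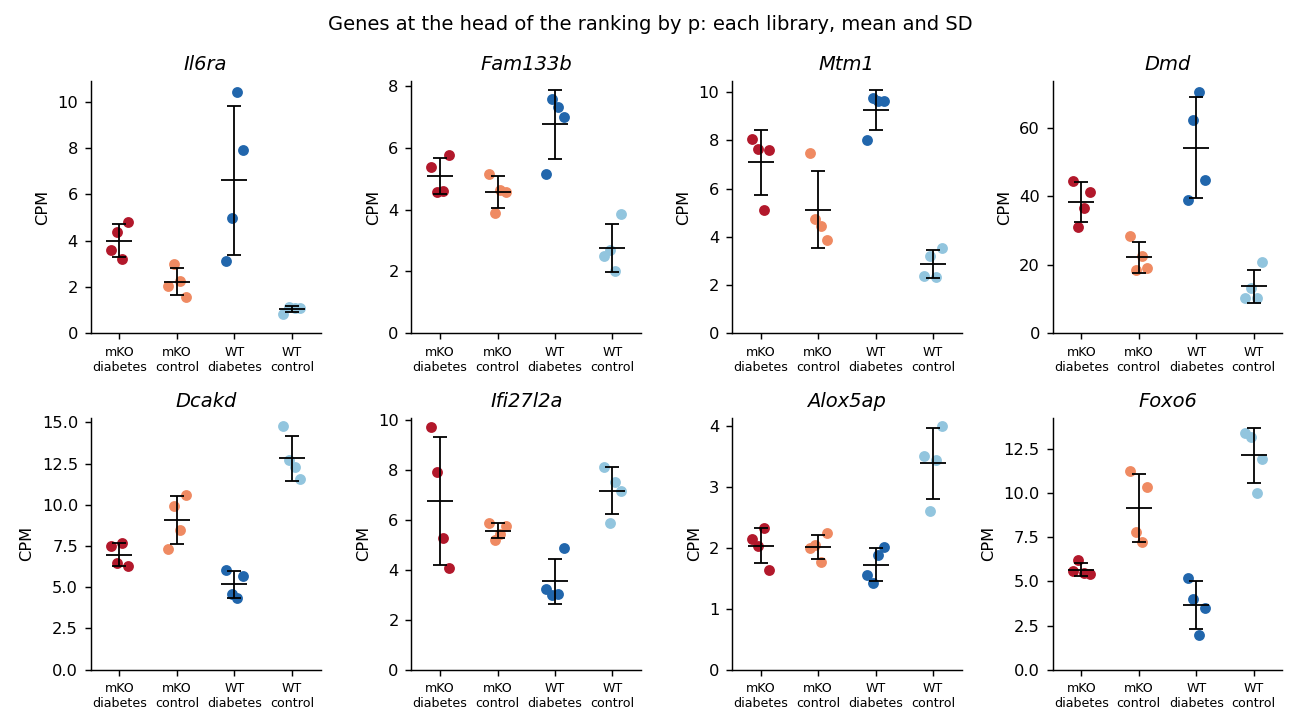
CPM of 8 genes near the head of the ranking by p in each of the 16 libraries, with group means (bars) and SD (whiskers); from left to right Notch2-mKO diabetes, Notch2-mKO control, WT diabetes and WT control. In the upper row diabetes raises the WT values the most, with Il6ra reaching 10.4 CPM in 1 WT diabetes library, and in the lower row WT diabetes sits below WT control without overlap.

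On the higher side the 12 leading genes fell with diabetes in WT. Dcakd, which carries a dephospho-CoA kinase domain (chromosome 11, 102994047 to 103028370), was at 7.49, 6.46, 7.69 and 6.27 CPM in Notch2-mKO diabetes and 7.35, 9.92, 8.45 and 10.6 in Notch2-mKO controls. It was at 6.06, 4.61, 4.38 and 5.66 CPM in WT diabetes and 14.8, 12.7, 12.3 and 11.5 in WT controls. The WT groups did not overlap, the Notch2-mKO groups did, every Notch2-mKO diabetes library exceeded every WT diabetes library and every Notch2-mKO control lay below every WT control. The difference was 0.93 (0.51 to 1.35, unadjusted p 0.000201), with log2 responses of -0.38 in Notch2-mKO and -1.31 in WT.

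Foxo6, a member of the FOXO family, was at 5.56, 6.20, 5.48 and 5.41 CPM in Notch2-mKO diabetes and 11.2, 7.81, 7.24 and 10.3 in Notch2-mKO controls, and at 5.21, 4.02, 1.94 and 3.46 CPM in WT diabetes and 13.4, 13.1, 9.999 and 11.9 in WT controls. Diabetes lay below control in both genotypes without overlap, and the Notch2-mKO diabetes libraries all lay above the WT diabetes libraries. The difference was 1.04 (0.41 to 1.67, unadjusted p 0.00263). Alox5ap, needed for leukotriene synthesis and expressed mainly by leukocytes, had 2.14, 2.03, 2.32 and 1.64 CPM in Notch2-mKO diabetes and 2.0, 2.04, 1.76 and 2.24 in Notch2-mKO controls, and 1.56, 1.43, 1.89 and 2.0 CPM in WT diabetes and 3.5, 2.59, 3.44 and 4.0 in WT controls. Only the WT controls stood clear of the other 3 groups, and the difference was 0.99 (unadjusted p 0.00131). In a whole muscle, a change in the number of cells of a type and in the RNA of each cell cannot be told apart. Ifi27l2a, an interferon-inducible gene, had 9.76, 7.93, 5.30 and 4.09 CPM in Notch2-mKO diabetes and 5.88, 5.22, 5.43 and 5.75 in Notch2-mKO controls, and 3.26, 3.0, 3.06 and 4.89 CPM in WT diabetes and 8.12, 5.89, 7.51 and 7.18 in WT controls. It fell in WT diabetes and spread widely in Notch2-mKO diabetes, where 2 libraries lay above every control of that genotype and 1 below all of them; the difference was 1.29 (unadjusted p 0.000546).

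The remaining leaders on this side were Rpp21, a subunit of RNase P, S100a6, a calcium-binding protein, the matrix protein Ecm1, the deubiquitinase Josd2, the transcription factor Mlx, which pairs with the glucose sensor ChREBP, and 3 histone genes of 1 cluster on chromosome 3. Differences ran from 0.45 for Hist2h2aa2 to 0.95 for Hist2h3c2. The histone genes have near-identical copies, among which reads could be split, so their values are uncertain. With the base composition trend removed Hist2h2aa2 had 0.19 (unadjusted p 0.146), the neighbouring Hist2h2aa1 0.22 (unadjusted p 0.125) and Josd2 0.42 (unadjusted p 0.00685). All 12 kept a positive sign in the other fits and with each library left out, which tests nothing, since they were chosen by p from these same libraries.

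Of the ubiquitin ligases that mark muscle wasting, Fbxo32 (atrogin-1, chromosome 15, 58175879 to 58214892) had 281, 306, 522 and 429.9 CPM in Notch2-mKO diabetes and 121, 157, 155 and 210.2 in Notch2-mKO controls. In WT it had 284, 571, 1197 and 418 CPM with diabetes and 66.7, 114, 87.5 and 172 in controls. Diabetes exceeded control without overlap in both genotypes, and the 1197 CPM of WT diabetes replicate 3 was more than any other library by a wide margin. The log2 response was 1.26 in Notch2-mKO (edgeR adjusted p 0.0400) and 2.49 in WT (edgeR adjusted p 9.70e-05). The Notch2-mKO call was lost without any 1 of the 8 Notch2-mKO libraries and without WT control replicate 2 or WT diabetes replicate 2. The difference was -1.23 (-2.26 to -0.20, unadjusted p 0.0214, edgeR adjusted p 0.502), and it was -0.69 (unadjusted p 0.0894) without WT diabetes replicate 3.

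Trim63 (MuRF1, chromosome 4, 134315120 to 134329629) had 299, 334, 544 and 515 CPM in Notch2-mKO diabetes and 187, 301, 218 and 233 in Notch2-mKO controls, and 276, 505, 926 and 636 CPM in WT diabetes and 166, 213, 172 and 209 in WT controls. The WT groups did not overlap, and the Notch2-mKO groups overlapped by 1 library. The difference was -0.78 (-1.56 to 0.00, unadjusted p 0.0509), and -0.47 without WT diabetes replicate 3. Its promoter window, shown because Trim63 is a textbook FOXO target, is chr4:134314870-134315169 on the plus strand of GRCm38.p6, with the FOXO motif, read from the opposite strand, in capitals.
Trim63: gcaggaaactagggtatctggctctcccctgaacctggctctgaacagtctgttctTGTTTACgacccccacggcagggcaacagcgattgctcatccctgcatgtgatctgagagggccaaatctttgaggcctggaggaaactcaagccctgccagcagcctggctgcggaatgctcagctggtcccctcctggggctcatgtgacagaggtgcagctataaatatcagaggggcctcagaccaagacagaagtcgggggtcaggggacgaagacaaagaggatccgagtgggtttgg

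Fbxo30 (MUSA1), another ligase of wasting muscle, had a difference of -0.35 (-1.10 to 0.40, unadjusted p 0.345) and a value of 0.07 with the base composition trend removed. Over the 22 wasting genes measured, 1 was higher (Trim54, MuRF3, 0.35) and 2 were lower (Fbxo32 and Nedd4, -0.27) at unadjusted p below 0.05, beside 3.35% and 5.91% of all genes, and 0 after adjustment. With the base composition trend removed Trim54 had 0.13 (unadjusted p 0.308) and Nedd4 -0.17 (unadjusted p 0.160). The same holds for every list described below: 0 members passed adjustment with edgeR or limma, and none of the 8 DESeq2 calls belongs to a list. The median difference of the wasting genes was -0.05, beside -0.003 for all genes, and 0.02 without Notch2-mKO control replicate 3. In Notch2-mKO 3 of the 22 rose and 0 fell with diabetes, beside 3.45% and 2.92% of all genes, and in WT 9 rose and 2 fell, beside 18.8% and 16.8%. These shares of all genes are the background for the counts of every list below.

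Most of the listed genes that answer glucocorticoids and FOXO factors rose with diabetes in WT. All 25 were measured, of which 6 rose and 0 fell with diabetes in Notch2-mKO, and 16 rose and 1 fell in WT. The median response was 0.61 in Notch2-mKO and 0.92 in WT, and the median difference was -0.38, beside -0.003 over all genes. It lay between -0.47 and -0.18 with any 1 library left out, nearest 0 without WT diabetes replicate 3. At unadjusted p, 3 members were lower (Pik3r1, Foxo4 and Insr) and 2 higher (Bcl6 and Foxo6), beside 5.91% and 3.35% of all genes. Pik3r1, the regulatory subunit of PI3-kinase, was at 29.1, 37.9, 22.9 and 38.0 CPM in Notch2-mKO diabetes and 13.7, 13.4, 13.2 and 10.1 in Notch2-mKO controls, and at 19.9, 53.9, 65.5 and 49.2 CPM in WT diabetes and 7.82, 9.60, 11.1 and 11.8 in WT controls. It rose in both genotypes, with a difference of -0.88 (unadjusted p 0.0235), and WT diabetes replicate 1 lay below the other 3. Foxo4 had a difference of -0.40 (unadjusted p 0.0229). The repressor Bcl6 ran the other way, at 0.81 (unadjusted p 0.0197), with log2 responses of 0.55 in Notch2-mKO and -0.26 in WT, neither of them called.

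In insulin and IGF signalling 3 of 27 measured genes were lower at unadjusted p, Pik3r1 among them, and 0 were higher, beside 5.91% and 3.35% of all genes. The insulin receptor Insr was at 49.7, 45.9, 44.2 and 41.1 CPM in Notch2-mKO diabetes and 41.8, 31.6, 34.3 and 36.6 in Notch2-mKO controls, and at 41.9, 56.1, 85.4 and 50.9 CPM in WT diabetes and 27.2, 32.7, 32.6 and 35.0 in WT controls. Its difference was -0.55 (unadjusted p 0.0255), and the 85.4 CPM of WT diabetes replicate 3 was the highest value; without that library it was -0.32 (unadjusted p 0.0680). The receptors Igf2r and Igf1r had differences of -0.28 (unadjusted p 0.0387) and -0.65 (unadjusted p 0.0557). The list's median difference of -0.12 turned positive without WT control replicate 1 or 2 or Notch2-mKO control replicate 1 or 3, reaching 0.02, and was -0.07 without WT diabetes replicate 3.

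Fatty acid genes rose with diabetes in both genotypes: 19 of 38 in Notch2-mKO, with 0 falling, and 25 in WT, with 3 falling. The median response was 0.41 in Notch2-mKO and 0.59 in WT, and the median difference -0.12, which stayed between -0.18 and -0.06 with any 1 library left out. At unadjusted p, 6 members were lower and 1 higher; the 6 include Acadl, Acadm and Etfa of mitochondrial beta-oxidation, named after their values were seen. Acot2, a mitochondrial acyl-CoA thioesterase, was at 16.2, 11.7, 6.95 and 7.96 CPM in Notch2-mKO diabetes and 2.17, 2.25, 3.14 and 2.19 in Notch2-mKO controls, and at 15.8, 20.1, 14.3 and 13.6 CPM in WT diabetes and 1.16, 1.05, 2.79 and 1.67 in WT controls. Diabetes lay above control without overlap in both genotypes, with log2 responses of 2.13 in Notch2-mKO and 3.26 in WT and a difference of -1.13 (-1.95 to -0.30, unadjusted p 0.0102). Acot1, its cytosolic relative, had the largest WT response of the genes named here. It was at 13.2, 16.6, 10.3 and 8.38 CPM in Notch2-mKO diabetes and 0.809, 1.61, 1.33 and 0.492 in Notch2-mKO controls, and at 11.4, 21.1, 19.7 and 12.8 CPM in WT diabetes and 1.07, 0.561, 1.09 and 1.03 in WT controls. Its responses were 3.51 in Notch2-mKO and 4.13 in WT, and the difference of -0.62 had an interval of -1.54 to 0.31. Acot1 and Acot2 are close relatives, and reads could be split between them.

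Cd36, which carries fatty acids across the cell membrane, was at 216, 212, 172 and 161 CPM in Notch2-mKO diabetes and 135, 96.2, 104 and 106 in Notch2-mKO controls, and at 176, 259, 232 and 225 CPM in WT diabetes and 65.8, 77.2, 72.5 and 106 in WT controls. Its difference was -0.69 (unadjusted p 0.00502), and -0.21 (unadjusted p 0.169) with the base composition trend removed. Slc27a1, the fatty acid transport protein FATP1, was at 119.7, 145, 117 and 109 CPM in Notch2-mKO diabetes and 74.9, 81.1, 63.4 and 62.2 in Notch2-mKO controls, and at 119, 160.3, 136 and 150.1 CPM in WT diabetes and 56.3, 60.1, 57.2 and 58.9 in WT controls. Both genes rose in both genotypes without overlap. The Slc27a1 difference was -0.48 (unadjusted p 0.00767), and -0.65 with the trend removed. Ppard, a nuclear receptor for fatty acids, had the only higher value at unadjusted p, 0.39 (p 0.00880), with responses of 0.02 in Notch2-mKO and -0.37 in WT. It was 0.17 (unadjusted p 0.166) with the trend removed and 0.24 (unadjusted p 0.0691 with limma) on the authors' log2 values. Pdk4, the kinase that shuts pyruvate out of the mitochondrial cycle, had 913, 793, 841 and 1178 CPM in Notch2-mKO diabetes and 109, 413, 444 and 194 in Notch2-mKO controls, and 1114, 1190.0, 990.1 and 1867 CPM in WT diabetes and 130.2, 72.6, 348 and 201 in WT controls. The groups of each genotype did not overlap, and the difference was -1.10 (-2.29 to 0.09, unadjusted p 0.0685).

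Of 25 lipid synthesis genes, 3 fell and 1 rose with diabetes in Notch2-mKO, and 10 fell and 3 rose in WT. Fasn, fatty acid synthase, was at 16.1, 20.6, 19.6 and 27.6 CPM in Notch2-mKO diabetes and 31.8, 27.8, 31.6 and 33.6 in Notch2-mKO controls, and at 13.7, 16.4, 17.6 and 16 CPM in WT diabetes and 50.2, 60.8, 28.8 and 31.9 in WT controls. Diabetes lay below control without overlap in both genotypes, and the difference was 0.86 (0.28 to 1.44, unadjusted p 0.00568). Elovl1, which elongates saturated fatty acids, was also higher at unadjusted p (0.54, p 0.0227). The median difference of the list was 0.03, and it turned negative, to -0.06, with the base composition trend removed and to -0.07 on the authors' log2 values. It was -0.01 without any 1 of WT control replicate 2, WT diabetes replicate 1, Notch2-mKO control replicate 3 and Notch2-mKO diabetes replicate 2. Scd1, the delta-9 desaturase, had 46.5, 18.5, 9.78 and 8.48 CPM in Notch2-mKO diabetes and 106, 99.8, 75.8 and 84.4 in Notch2-mKO controls, and 9.41, 5.74, 8.92 and 18.6 CPM in WT diabetes and 95.3, 69.7, 34.2 and 100.4 in WT controls. It fell in both genotypes without overlap. The difference of 0.67 (-0.62 to 1.96) went to -0.09 without Notch2-mKO diabetes replicate 1, the highest diabetes library of that genotype.

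Among glucose and glycogen genes, Ppp1r3a, the glycogen-targeting subunit of protein phosphatase 1 in muscle, was at 202, 146, 144 and 178 CPM in Notch2-mKO diabetes and 142, 78.9, 92.2 and 84.1 in Notch2-mKO controls, and at 171, 263, 279 and 237 CPM in WT diabetes and 64.3, 75.2, 43.2 and 112 in WT controls. The WT groups were well apart, the Notch2-mKO groups nearly touched, and the difference was -0.93 (unadjusted p 0.0112), or -0.29 with the base composition trend removed. Tbc1d4, which holds back the glucose transporter Glut4 until insulin acts, had a difference of -0.52 (unadjusted p 0.0349), and Hk1, a hexokinase, one of 0.46 (unadjusted p 0.0183). Without WT diabetes replicate 3 the Tbc1d4 value was -0.28 (unadjusted p 0.101). Of 23 genes 2 were lower and 1 higher at unadjusted p, and the median difference was -0.07, or -0.12 without WT diabetes replicate 3. Of the 24 genes of glycolysis and lactate handling, 0 fell and 0 rose with diabetes in Notch2-mKO, and 12 fell and 1 rose in WT. At unadjusted p for the difference itself, 1 of the 24 was higher and 1 lower, near the 3.35% and 5.91% of all genes. The median difference of this list, 0.23, was 0.07 with the trend removed and 0.09 without WT diabetes replicate 3.

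**Figure D3:**
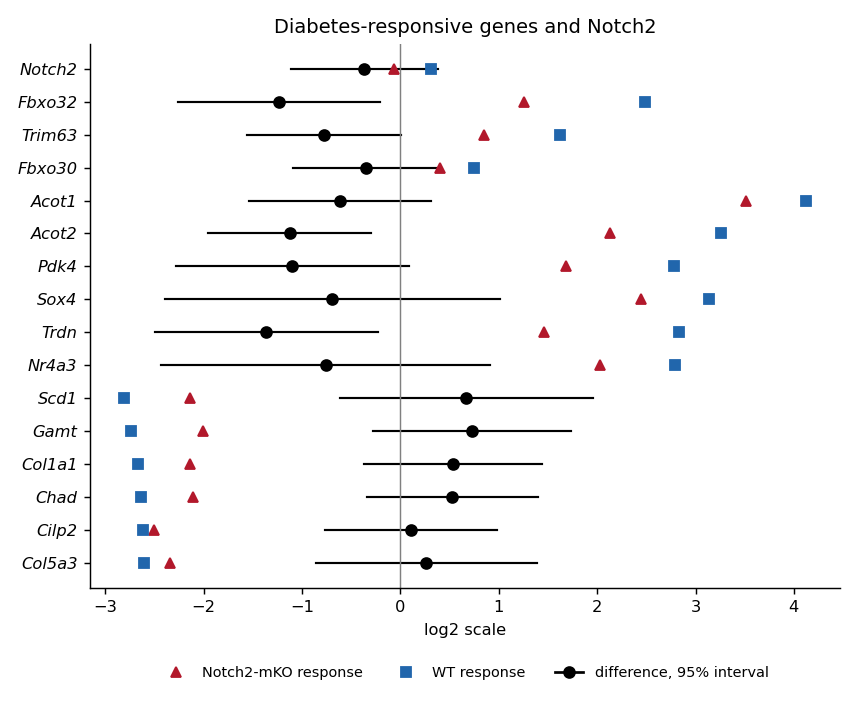
Log2 response to diabetes in Notch2-mKO (triangles) and WT (squares), and the difference in response with its 95% interval (circles and lines), for Notch2, 3 ubiquitin ligases and 12 genes with large responses. The intervals of Fbxo32, Acot2 and Trdn lie below 0 before adjustment over genes, and those of the genes that fell with diabetes all cross 0.

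Nuclear-encoded subunits of oxidative phosphorylation fell with diabetes in both genotypes, 18 of 54 in Notch2-mKO and 40 of 54 in WT, and 0 rose. The median response was -0.38 in Notch2-mKO and -0.52 in WT, and the median difference 0.14, or 0.04 without WT diabetes replicate 3 and 0.11 with the base composition trend removed. At unadjusted p 6 members were higher and 0 lower, against 3.35% and 5.91% of all genes. The 6 are Ndufb7, Ndufb10, Cox4i1 and Cox6a2 and, named after their values were seen, the complex III subunit Uqcrq and the ATP synthase subunit Atp5d. The complex I subunit Ndufb7 was at 133, 127, 138 and 139.9 CPM in Notch2-mKO diabetes and 161, 161, 199.99 and 174 in Notch2-mKO controls, and at 130.2, 98.7, 77.2 and 118 CPM in WT diabetes and 198, 187, 244 and 184 in WT controls. WT diabetes replicate 3 had its lowest value, and the difference was 0.57 (unadjusted p 0.00762). Cox6a2, the muscle form of a cytochrome oxidase subunit, was at 916, 866, 1003 and 981 CPM in Notch2-mKO diabetes and 1036, 1269, 1156 and 1036 in Notch2-mKO controls, and at 822, 707, 725 and 743 CPM in WT diabetes and 1222, 1047, 1251 and 1146 in WT controls. Every Notch2-mKO diabetes library lay above every WT diabetes library, the controls overlapped, and the difference was 0.38 (unadjusted p 0.0103). Ndufb10 and Cox4i1 had differences of 0.44 and 0.42, and 0.29 and 0.25 with the trend removed, neither then at unadjusted p below 0.05.

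Of 30 mitochondrial ribosomal proteins, 1 fell and 0 rose with diabetes in Notch2-mKO, and 21 fell and 0 rose in WT. The median response was -0.19 in Notch2-mKO and -0.42 in WT, and the median difference of 0.19 stayed between 0.13 and 0.27 with any 1 library left out and was 0.13 with the base composition trend removed. At unadjusted p 5 were higher and 0 lower. Mrps11, of the small subunit, was at 14.5, 12.6, 13.5 and 12.3 CPM in Notch2-mKO diabetes and 13.9, 14.5, 17.9 and 14.4 in Notch2-mKO controls, and at 12.9, 9.66, 8.23 and 11.0 CPM in WT diabetes and 14.0, 18.2, 21.1 and 17.0 in WT controls, a difference of 0.56 (unadjusted p 0.0125). Mrps2, Mrpl11 and Mrpl37 had differences of 0.49, 0.43 and 0.34, and the other member was Mrpl34, named after its values were seen. Cytosolic ribosomal proteins had a median difference of -0.01 over 40 members, and its sign turned with any 1 of 5 libraries left out.

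Collagens and other matrix genes fell with diabetes, 21 of 40 in Notch2-mKO with 0 rising, and 26 of 40 in WT with 3 rising. At unadjusted p for the difference 3 were higher (Loxl1, Bgn and Serpinh1) and 1 lower (Lox). The median response was -0.53 in Notch2-mKO and -0.79 in WT. The median difference of 0.25 lay between 0.10 without WT diabetes replicate 3 and 0.44 without Notch2-mKO control replicate 4, and was 0.14 with the base composition trend removed. Col1a1, the main fibrillar collagen chain, was at 52.6, 36.3, 33.4 and 26.5 CPM in Notch2-mKO diabetes and 157, 130.2, 121 and 246 in Notch2-mKO controls, and at 46.6, 32.7, 12.4 and 47.9 CPM in WT diabetes and 185, 254, 212 and 235 in WT controls. It fell by over 2 on the log2 scale in both genotypes, and its difference of 0.53 (-0.37 to 1.43) did not pass and was 0.25 without WT diabetes replicate 3. Serpinh1, the collagen chaperone Hsp47, was at 31.9, 33.7, 32.9 and 23.2 CPM in Notch2-mKO diabetes and 45.8, 59.6, 54.5 and 71.4 in Notch2-mKO controls, and at 28.9, 25.3, 24.5 and 28.8 CPM in WT diabetes and 78.6, 65.5, 81.9 and 72.3 in WT controls. It fell in both genotypes, with responses of -0.93 in Notch2-mKO and -1.47 in WT and a difference of 0.55 (unadjusted p 0.00973).

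The proteoglycan biglycan (Bgn) was at 36.6, 38.3, 40.3 and 39.3 CPM in Notch2-mKO diabetes and 43.4, 47.3, 44.6 and 49.5 in Notch2-mKO controls, and at 37.3, 39.6, 41.9 and 40.4 CPM in WT diabetes and 60.7, 57.5, 74.5 and 57.3 in WT controls. The diabetes groups overlapped, every Notch2-mKO control lay below every WT control, and the difference of 0.39 (unadjusted p 0.00818) came with genotype differences of -0.04 in diabetes and -0.43 in controls. Of the enzymes that crosslink collagen, Loxl1 had a difference of 0.61 (unadjusted p 0.00787) and Lox one of -0.85 (unadjusted p 0.0439), and their responses in WT had opposite signs, at -1.01 and 1.54. The Lox value was -0.53 (unadjusted p 0.144) without WT diabetes replicate 3 and -0.49 (unadjusted p 0.153) with the base composition trend removed. The cartilage and tendon proteins Chad and Cilp2 and the collagen chain Col5a3 had differences of 0.53, 0.11 and 0.26, each with an interval across 0. Without WT diabetes replicate 3 the Chad value was 0.25. The value for Cilp2 turned negative, down to -0.11, without WT control replicate 2, WT diabetes replicate 3 or Notch2-mKO control replicate 3, and that for Col5a3 went to -0.02 without Notch2-mKO diabetes replicate 1.

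Among 28 genes of calcium handling, the Z-disc and the dystrophin complex, 6 were lower and 0 higher at unadjusted p, while the list's median difference was 0.11 and turned to -0.01 with the base composition trend removed and to -0.03 on the authors' log2 values, and was 0.04 without WT diabetes replicate 3. Trdn, Dmd, Ankrd1 and Sln are 4 of the 6, and the others, named after their values were seen, are Jph1, which ties the calcium store to the cell membrane, and Xirp2, an actin-binding protein. Trdn encodes triadin, which anchors calsequestrin to the calcium release channel. It was at 457, 276, 309 and 446 CPM in Notch2-mKO diabetes and 244, 76.5, 116 and 103 in Notch2-mKO controls, and at 371, 584, 646 and 479 CPM in WT diabetes and 37.4, 55.0, 44.6 and 156 in WT controls. Diabetes exceeded control in both genotypes, and WT control replicate 4 stood well above the other WT controls. The difference was -1.37 (-2.50 to -0.23, unadjusted p 0.0209), and -2.04 (unadjusted p 0.000118, edgeR adjusted p 0.0789) without that library. It was -0.91 without Notch2-mKO control replicate 1 and -0.98 (unadjusted p 0.0232) with the base composition trend removed, and DESeq2 gave an unadjusted p of 0.0583. Sarcolipin (Sln), an inhibitor of the calcium pump, was at 1.88, 1.40, 1.0 and 1.27 CPM in Notch2-mKO diabetes and 0.405, 0.944, 0.579 and 0.983 in Notch2-mKO controls, and at 0.826, 1.72, 4.92 and 3.18 CPM in WT diabetes and 0.889, 0.280, 0.168 and 0.364 in WT controls. The level was low throughout, WT diabetes replicate 1 lay within the range of the WT controls, and the difference was -1.73 (-3.20 to -0.26, unadjusted p 0.0232). Ankrd1, a stretch-responsive protein of the Z-disc and I-band, was at 7.21, 5.32, 6.4 and 5.68 CPM in Notch2-mKO diabetes and 4.43, 2.73, 5.14 and 2.97 in Notch2-mKO controls, and at 9.24, 14.4, 15.7 and 5.49 CPM in WT diabetes and 3.59, 2.71, 2.79 and 3.36 in WT controls. All diabetes libraries were above all controls of their genotype, and the difference was -1.16 (unadjusted p 0.00591).

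Among chaperones of the endoplasmic reticulum, Hspa5 (BiP) was at 125, 123, 115 and 117 CPM in Notch2-mKO diabetes and 121, 129, 139 and 101 in Notch2-mKO controls, and at 117, 139, 190.1 and 149 CPM in WT diabetes and 104, 101, 96.7 and 102 in WT controls. The Notch2-mKO groups overlapped and the WT groups did not, and the difference was -0.59 (unadjusted p 0.00294), or -0.55 with the base composition trend removed. Hsp90b1 (Grp94) was at 53.4, 47.8, 45.5 and 48.6 CPM in Notch2-mKO diabetes and 44.9, 33.2, 43.2 and 35.5 in Notch2-mKO controls, and at 51.6, 66.7, 78.5 and 56.4 CPM in WT diabetes and 31.9, 31.5, 27.5 and 38.2 in WT controls, a difference of -0.66 (unadjusted p 0.00267). Dnajb9, a co-chaperone of BiP, had a difference of -0.38 (unadjusted p 0.0171), and the lectin chaperone Canx one of -0.53 (unadjusted p 0.0546). With the trend removed Hsp90b1 had -0.40 (unadjusted p 0.0116), Dnajb9 -0.23 (unadjusted p 0.102) and Canx -0.29 (unadjusted p 0.187), and Canx had -0.31 without WT diabetes replicate 3. Over 26 measured stress response genes 3 were lower and 0 higher at unadjusted p, beside 5.91% and 3.35% of all genes, with a median difference of -0.09. In Notch2-mKO 0 rose and 1 fell, beside 3.45% and 2.92% of all genes, and in WT 7 rose and 1 fell, beside 18.8% and 16.8%. Of 25 cytosolic and mitochondrial chaperones, 3 were lower (Hsp90aa1, Dnajb4 and Hspa9) and 3 higher (Hsf1, Hspe1 and Hspb6), of which Hspa9 and Hspb6 are named after their values were seen. Hsp90aa1 and Dnajb4 had differences of -0.69 and -0.35, while the heat shock factor Hsf1 and the mitochondrial Hspe1 had 0.58 and 0.36.

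Targets of p53 had a median difference of -0.36, which stayed between -0.45 and -0.18 with any 1 library left out, nearest 0 without WT diabetes replicate 3. Without that library the medians of this list and of the glucocorticoid and FOXO list were both -0.179, the value of Sesn1, so these are not separate results. With the base composition trend removed the median of the p53 targets was -0.22. Of 19, 2 were lower and 0 higher at unadjusted p, beside 5.91% of all genes on the lower side. Eda2r, a receptor of the tumour necrosis factor family that p53 induces, was at 14.7, 8.37, 12.2 and 12 CPM in Notch2-mKO diabetes and 8.11, 5.04, 5.21 and 7.18 in Notch2-mKO controls, and at 7.68, 24.1, 60.8 and 11.1 CPM in WT diabetes and 3.59, 7.31, 4.27 and 6.79 in WT controls. The 60.8 CPM of WT diabetes replicate 3 was far above the rest; the difference of -1.35 (unadjusted p 0.0439) was -0.50 without that library. Gadd45b, a stress-inducible growth arrest gene, had a difference of -0.82 (unadjusted p 0.0152). Clock genes had a median difference of -0.26, between -0.36 and -0.18 with any 1 library left out, and 1 of 16 was lower. That gene, Rora, which activates Bmal1, was at 12, 12.1, 12.5 and 11.8 CPM in Notch2-mKO diabetes and 7.47, 4.19, 4.30 and 3.74 in Notch2-mKO controls, and at 8.63, 18.2, 25.3 and 14.4 CPM in WT diabetes and 2.43, 4.02, 2.35 and 5.30 in WT controls. It rose in both genotypes without overlap, although the Notch2-mKO call was lost without Notch2-mKO control replicate 4 (edgeR, adjusted p 0.0627), and the difference was -0.94 (unadjusted p 0.0324). The time of day of collection is not given in the sources used here.

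Of the Notch pathway's own genes, 36 of 40 were measured, 2 were lower and 0 higher at unadjusted p, near the 5.91% and 3.35% of all genes, and the median difference of -0.14 lay between -0.23 and -0.01 with any 1 library left out, nearest 0 without Notch2-mKO control replicate 4. With diabetes 0 rose and 1 fell in Notch2-mKO, beside 3.45% and 2.92% of all genes, and 7 rose and 6 fell in WT, near the 18.8% and 16.8% of all genes. Among ligands, Jag1 was at 1.71, 1.63, 1.58 and 2.01 CPM in Notch2-mKO diabetes and 1.98, 1.37, 1.38 and 2.09 in Notch2-mKO controls, and at 2.20, 2.18, 3.30 and 2.13 CPM in WT diabetes and 0.800, 1.5, 0.922 and 2.21 in WT controls. The diabetes and control groups overlapped in both genotypes, every Notch2-mKO diabetes library lay below every WT diabetes library, and the difference was -0.83 (unadjusted p 0.0456), or -0.13 (unadjusted p 0.351 with limma) on the authors' log2 values. The part of the floor of those values in the smaller difference of Jag1 was not tested. The processing enzyme Adam10 was at 7.34, 7.52, 6.33 and 6.27 CPM in Notch2-mKO diabetes and 8.54, 5.37, 4.90 and 8.60 in Notch2-mKO controls, and at 6.84, 9.26, 10.8 and 8.58 CPM in WT diabetes and 4.68, 5.72, 4.69 and 6.73 in WT controls. Its WT groups did not overlap, its Notch2-mKO groups did, and the difference was -0.70 (unadjusted p 0.0180). The coactivator Maml2 and the gamma-secretase subunit Psenen had differences of -0.51 and 0.27, neither at unadjusted p below 0.05. The targets Hes5 and Hey2, the ligand Dll3 and the gamma-secretase subunit Aph1a did not pass the filter on low counts.

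Interferon and antigen presentation genes had a median difference of 0.24, with 3 of 24 higher and 1 lower at unadjusted p. The median lay between 0.07 without WT control replicate 1 and 0.42 without Notch2-mKO control replicate 4. It was 0.10 with the base composition trend removed and 0.06 on the authors' log2 values. Irf9, the DNA-binding part of the interferon-stimulated complex, had a difference of 0.55, Oas1a one of 1.43 at under 1 CPM in every library, and Ifi35 one of 0.55. With the trend removed Irf9 had 0.52 (unadjusted p 0.0212), Oas1a 1.35 (unadjusted p 0.0443) and Ifi35 0.37 (unadjusted p 0.0823). Ifit2 went the other way, at -1.55 (unadjusted p 0.0159), or -0.27 (unadjusted p 0.185 with limma) on the authors' log2 values, where the part of their floor was not tested. Markers of macrophages and other leukocytes summed to between 124 and 163 CPM in Notch2-mKO diabetes, 123 and 204 in Notch2-mKO controls, 123 and 154 in WT diabetes and 185 and 228 in WT controls. Of 25 such markers 19 passed the filter, 2 were higher (H2-Ab1 and Cd74) and 0 lower at unadjusted p, and the defining markers Adgre1, Cx3cr1, Cd3e, Cd79a, S100a8 and S100a9 did not pass. The class II gene H2-Ab1 was at 14.2, 8.13, 10.6 and 11.6 CPM in Notch2-mKO diabetes and 14.5, 10.4, 12.8 and 17.8 in Notch2-mKO controls, and at 13.8, 8.61, 6.42 and 8.90 CPM in WT diabetes and 23.6, 24.2, 20.4 and 20.5 in WT controls. The WT controls stood above all other groups, and the difference was 0.92 (unadjusted p 0.00503). Cd74, the class II invariant chain, had 0.82 (unadjusted p 0.0135). The part of leukocyte RNA in the values of Alox5ap was not tested.

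Adipocyte markers summed to between 442 and 599.5 CPM in Notch2-mKO diabetes, 358 and 392 in Notch2-mKO controls, 396 and 508 in WT diabetes and 304 and 415 in WT controls. Over the 9 that passed the filter, the median response was 0.23 in Notch2-mKO and -0.41 in WT, a fall that the WT sums do not show. In Notch2-mKO 2 rose and 0 fell, and in WT 3 rose and 1 fell. The median difference of 0.37 lay between 0.08 without Notch2-mKO diabetes replicate 2 and 1.29 without WT diabetes replicate 4, and was 0.18 without WT diabetes replicate 3. Adipoq, the fat cell hormone adiponectin, was at 11.2, 10.8, 3.57 and 2.72 CPM in Notch2-mKO diabetes and 5.34, 6.55, 6.54 and 5.73 in Notch2-mKO controls, and at 1.72, 2.28, 2.23 and 6.70 CPM in WT diabetes and 5.90, 2.62, 4.83 and 5.52 in WT controls. It varied several-fold within both diabetes groups, and the difference was 0.76 (-0.51 to 2.03). Retn, also of fat cells, was the only marker at unadjusted p below 0.05 (1.41, p 0.0475). The fat hormone and lipid genes Cfd and Plin1 had differences of 0.76 and 0.83. Fat cells also express Fasn and Scd1, and the part of fat cell RNA in the values of those genes was not tested.

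**Figure D4:**
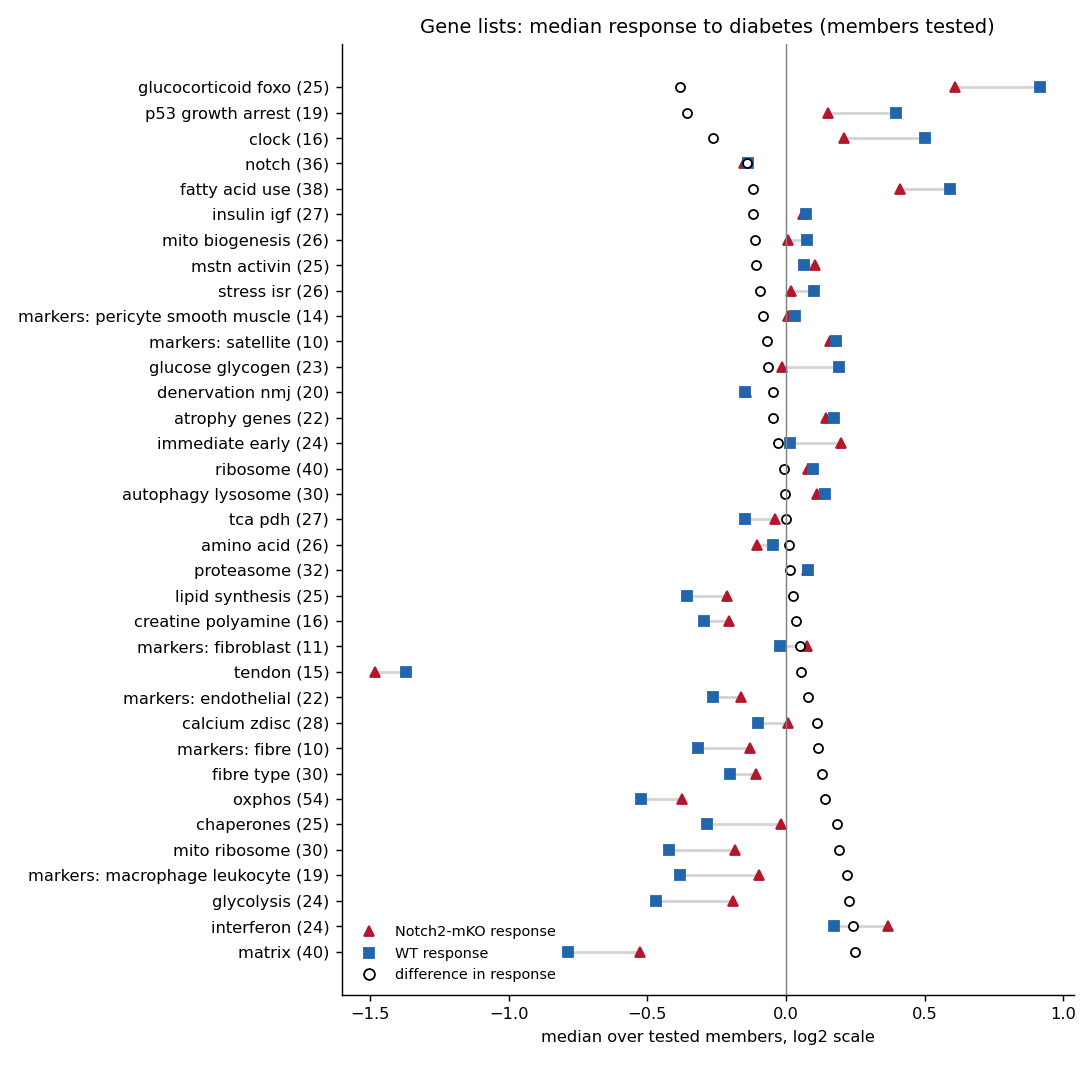
Median log2 response to diabetes in Notch2-mKO (triangles) and WT (squares) and median difference in response (open circles) over the tested members of each gene list with at least 10, with the number tested in brackets. In most lists the Notch2-mKO median lies nearer 0 than the WT median, and the difference runs from -0.38 for glucocorticoid and FOXO genes to 0.25 for matrix genes.

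Base composition ran alongside these differences. For each library, the mean log2 level of the 1 in 5 genes lowest in GC minus that of the 1 in 5 highest in GC, relative to all libraries, was 0.211 ± 0.115 in Notch2-mKO diabetes, -0.164 ± 0.208 in Notch2-mKO control, 0.407 ± 0.133 in WT diabetes and -0.454 ± 0.278 in WT control (SD, n = 4 each). WT control replicate 4, at -0.0587, lay apart from the other WT controls, and Notch2-mKO control replicate 1, at 0.113, from the other controls of its genotype. These are the libraries whose removal moved the count at unadjusted p most. Over 5 equal bins of genes ordered by GC content from low to high, the median difference in response was -0.29, -0.09, 0.02, 0.11 and 0.16. Genes lower at unadjusted p had a median GC content of 44.3% and those higher one of 55.9%, beside 51.0% for all genes. With the trend of every library over GC content and gene length taken out, the difference of 24 of the 105 named genes was over 1.5 times smaller, that of 1 over 1.5 times larger and that of 3 of the other sign. In that fit 0 genes were called by edgeR and 798 were at an unadjusted p below 0.05, of which 540 were among the 1191 with the same sign. Whether the trend comes from the RNA, the libraries or the muscle cannot be told apart here, since it differs between the groups that are compared.

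**Figure D5:**
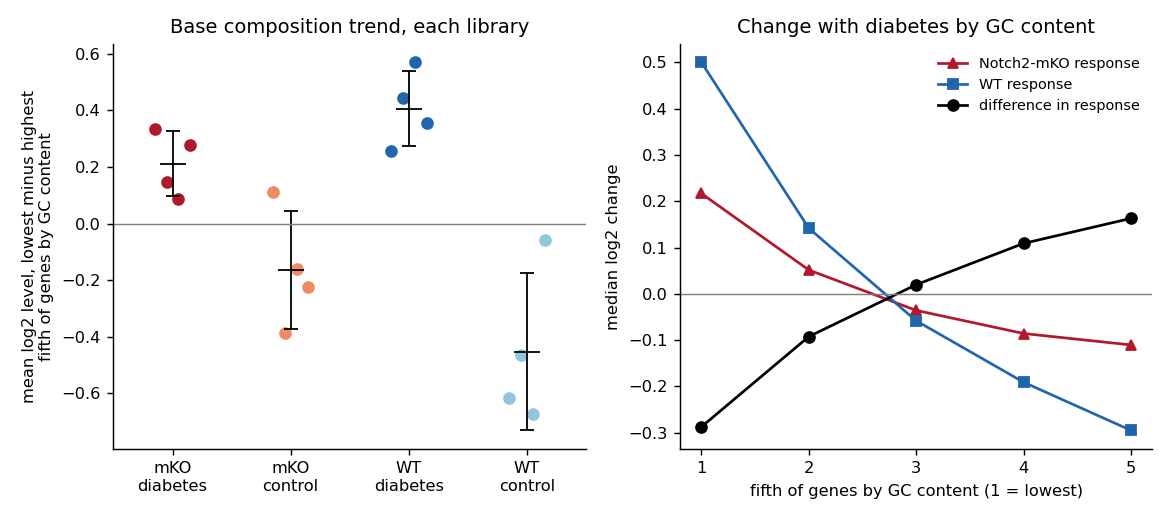
Left, mean log2 level of the 1 in 5 genes lowest in GC content minus that of the 1 in 5 highest, in each library, with group mean and SD, from left to right Notch2-mKO diabetes, Notch2-mKO control, WT diabetes and WT control. Right, median log2 response to diabetes in Notch2-mKO and WT and median difference in response by bin of GC content (5 bins); the difference runs from -0.29 in the lowest bin to 0.16 in the highest.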

How the data were processed

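RNA-seq of gastrocnemius was deposited as 1 table per genotype and treatment, each with its controls, and the control columns of the tables that share controls are identical. The authors' tables hold, per the file headers, estimated counts per gene model under the name raw data, which are not whole numbers in every cell, and the log2 values that the authors made from scaled counts with a floor, each relative to the mean of the 4 controls of its genotype. Gene models are RefSeq's, per the file headers. Per the submitters' processing notes the build is mm10, while the sources used here give neither aligner, counter nor strand setting. Labels give each library's genotype, treatment and number, and no extraction or sequencing batch. The comparison, the genes and all gene lists were chosen with earlier results of these data known.

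Estimated counts were rounded to whole numbers. The 16 libraries were fitted together with edgeR 4.0.16 (R 4.3.3; filterByExpr over the 4 groups, TMM scaling, quasi-likelihood F test) with 1 coefficient per group, and the interaction contrast, both responses and both genotype differences were taken from that fit with Benjamini-Hochberg adjustment over all 12864 genes and a threshold of 0.05. Standard errors are the log2 difference divided by the square root of F, and intervals are at 95%. The fit was tested on simulated data. Nothing in the labels ties a replicate number to an animal or day, and the main fit did not pair libraries by number. Correlations of same-numbered deviations ran from -0.17 to 0.35. Between Notch2-mKO and WT controls they were 0.35 for replicate 3 and 0.19 for replicate 4, above the highest with another number (-0.06 and 0.04). For replicates 1 and 2 they were -0.04 and -0.01, below the highest with another number (0.31 and 0.22). The cause was not tested. Alternatives were RLE and upper quartile scaling, no filter, DESeq2 1.42.0, limma 3.58.1 on the authors' log2 values, all 24 libraries, the replicate block, removal of the trend of each library with GC content and length (splines with 5 and 4 degrees of freedom, values from GENCODE for GRCm38 matched by Entrez ID for 21670 models), and each library left out.

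Genes are named by rule: Notch2, the 12 with the smallest p in each direction among genes averaging 2 CPM or more whose name is not a clone or model number, 3 ubiquitin ligases, 12 genes with large responses in an earlier analysis, and, from each list described, the leading members by p (4 at most), 105 in all. Of 38 lists (938 entries, 901 tested), 18 are described in full. Lists are summarised by counts and medians with no set test. Promoter windows are from RefSeq, GRCm38.p6. Figures were drawn with matplotlib 3.10.9. Precision at a given depth was taken from the spread between libraries, and no interval on counts was added.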

Additional observations from a re-analysis of the deposited data

Results flagged for a closer look

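In 26 of 420 groups of 4 libraries (6.19%) of the 105 named genes, the highest or the lowest library stood apart from the other 3 by more than Dixon's 95% critical value. Chance alone flags about 1 in 20 groups. No library holds more than 4 of the 26.

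WT diabetes replicate 3 was the highest of its group for Pcf11 (9.55 CPM), Ugp2 (717 CPM) and Jag1 (3.30 CPM). WT diabetes replicate 4 was the highest for Ifi27l2a (4.89 CPM) and Adipoq (6.70 CPM), and WT diabetes replicate 1 the lowest for Mtm1 (8.01 CPM). WT control replicate 4 was the highest of its group for March7 (9.27 CPM), Esco1 (3.06 CPM), Trdn (156 CPM) and Hsp90aa1 (13.2 CPM). Among the other WT controls, replicate 2 was the lowest for Acot1 (0.561 CPM), replicate 1 the highest for Hk1 (14.1 CPM) and replicate 3 the highest for Ndufb10 (438 CPM).

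In Notch2-mKO diabetes, replicate 3 was the lowest for Mtm1 (5.10 CPM), replicate 2 the highest for Bcl6 (73.5 CPM) and Ifi35 (8.47 CPM), replicate 4 the lowest for Loxl1 (10.6 CPM) and Serpinh1 (23.2 CPM), and replicate 1 the highest for Cd74 (47.8 CPM). In Notch2-mKO controls, replicate 3 was the highest for Acot2 (3.14 CPM) and Mrps11 (17.9 CPM) and the lowest for Cilp2 (5.79 CPM) and Elovl1 (3.23 CPM). Replicate 4 of that group was the lowest for Pik3r1 (10.1 CPM) and the highest for Cd74 (61.0 CPM), and replicate 1 the highest for Rora (7.47 CPM).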

How the results depend on the processing

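The count of 0 genes for the difference in response was the same under RLE and upper quartile scaling, no filter, all 24 libraries, the replicate block, removal of the GC and length trend and limma; DESeq2 called 8. Single libraries left out gave 0 to 1 calls, and 703 to 1921 genes at unadjusted p, against 1191. DESeq2 called 1381 genes for the Notch2-mKO response (820 with edgeR), 3 for the genotype difference in diabetes and 4 for that in controls, and single libraries left out gave 194 to 1470, 0 to 1 and 0 to 1. The WT response had 3672 to 4784 calls, against 4573. With the replicate block 0 genes were called for the difference, 1182 lay at unadjusted p and 676 were called for the Notch2-mKO response, and the block changed no call of a named gene in the difference. Limma, on values with 1939 tested genes at the authors' floor in all 16 libraries and so not tested, Notch2 and Oas1a among them, moved the median of all genes by -0.104. Of 2623 values of the named genes under these settings, 2605 kept their direction and side of the threshold. The settings reuse the same libraries and the smallest adjusted p in the main edgeR fit was 0.501, so this count is no independent test. The exceptions in direction, none past the threshold, were Fbxo30 (0.0686 with the GC and length trend removed and 0.0660 with the block as well), Ugp2 (0.102 in both), Cilp2 (-0.0425, -0.0240 and, with limma, -0.0128; -0.114 to 0.323 with 1 library left out), Nr4a3 (-1.21 to 0.115), Scd1 (-0.0908 to 1.08) and Col5a3 (-0.0206 to 0.950). The cause was not tested. With 4 libraries a group and a median standard error of 0.247, differences in response of the size seen for most genes lie within the spread between libraries.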
